A study of Mus musculus with 5 samples.

Results

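AMP-activated protein kinase (AMPK) subunits and the 2 kinases best known to activate it, LKB1 and CaMKK2, were read in RNA-seq libraries of CRC tumours of mice exposed to cold or to a thermoneutral temperature. The 9 genes were found by symbol among 54113 named entries of the count table. They are Prkaa1 and Prkaa2 (catalytic α1 and α2), Prkab1 and Prkab2 (scaffolding β1 and β2), Prkag1, Prkag2 and Prkag3 (regulatory γ1, γ2 and γ3), Stk11 (LKB1) and Camkk2 (CaMKK2). The group was selected on gene function, but with earlier values of the 4 °C against 30 °C comparison in view, in which Prkaa2 and Prkag2 stood out. Differences between temperatures are therefore given for these 9 genes as descriptions and not as tests. In the GENCODE M21 annotation of GRCm38, Prkaa1 and Prkag1 lie on chromosome 15, Prkab1, Prkag2 and Camkk2 on chromosome 5, Prkaa2 on chromosome 4, Prkab2 on chromosome 3, Prkag3 on chromosome 1 and Stk11 on chromosome 10.

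The tumours came from MC-38 cells, a mouse colon adenocarcinoma line, inoculated into C57BL/6 mice. Of 5 libraries, 3 were from tumours of mice kept at 30 °C for 2 weeks and 2 from tumours of mice kept at 4 °C for 2 weeks. MC-38 is a single cell line, and the labels name no altered gene in the host. The methods of the study describe young mice of both sexes, moved to a mild temperature before the cold, and call the samples sequenced here biological samples, while the labels give neither sex nor age for each one.

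AMPK senses a fall in cellular energy. It is a trimer of 1 α, 1 β and 1 γ subunit, in which γ binds AMP, ADP or ATP, β holds the complex together and binds glycogen, and α carries the kinase domain. The complex is switched on when LKB1, or CaMKK2 in response to calcium, phosphorylates the activation loop of α. Once active, it restrains the synthesis of fatty acids, cholesterol and protein and favours glucose uptake, fatty acid oxidation and autophagy. Phosphorylation is not visible in RNA, so the values below concern transcripts alone.

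The depth of the libraries ran from 16191708 to 20320525 counts assigned to named genes. Values in CPM are counts per 1000000 counts of a library. The library of 30 °C replicate 2 stood apart, since 14 pancreatic acinar genes took 23.2% of its counts, against 19.99 to 2211 CPM in the other 4 libraries. Because those counts lower the CPM of every other gene there, values are also given as TMM-scaled CPM, in which the libraries are scaled to one another on the bulk of the genes. Epithelial markers, the class expected of a carcinoma, were low (7 genes, 17.8 to 122 CPM in sum), while erythroblast and B cell markers reached 15768 to 42189 and 4601 to 11640 CPM. Splenic mesenchyme markers (4 genes) stood at 24.1 to 66.2 CPM in sum. The levels below are thus those of whole samples, and the part that came from MC-38 cells was not tested. In bulk tissue, fewer cells of a type and less RNA per cell cannot be told apart. Sums of the erythroblast, B cell, T cell, smooth muscle and splenic mesenchyme lists were taken in plain CPM, which is lowered in 30 °C replicate 2. On that scale they were higher in both libraries at 4 °C than in all 3 at 30 °C. After TMM scaling, however, 4 of 9 erythroblast genes were highest in 30 °C replicate 2, and so was their sum. The part of these cell types in any difference below was not tested.

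Transcripts of 1 paralogue prevailed within each subunit class. To compare genes, TMM-scaled CPM were divided by the summed exon length in kilobases (TMM-scaled RPKM). By this level, averaged over the 5 libraries, the order was Stk11 (37.9 ± 4.84, SD), Prkag1 (30.2 ± 5.36), Prkab1 (22.9 ± 4.998), Prkaa1 (11.7 ± 0.744), Camkk2 (3.11 ± 0.275), Prkag2 (2.14 ± 0.366), Prkab2 (1.68 ± 0.363), Prkaa2 (0.182 ± 0.279) and Prkag3 (0.0291 ± 0.0256). The ranges of Stk11 and Prkag1 overlapped, and so did those of Prkag1 and Prkab1, of Prkag2 and Prkab2 and of Prkaa2 and Prkag3. In all 5 libraries Stk11 stood above Prkag1 and Prkag1 above Prkab1, whereas Prkag2 stood above Prkab2 in 4 of 5. The order was the same when the longest transcript was used as the length. Among all tested genes with an annotated length, Stk11 lay at percentile 90.7 of the mean level, Prkaa1 at 72.8 and Prkaa2 at 3.93.

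**Figure D1:**
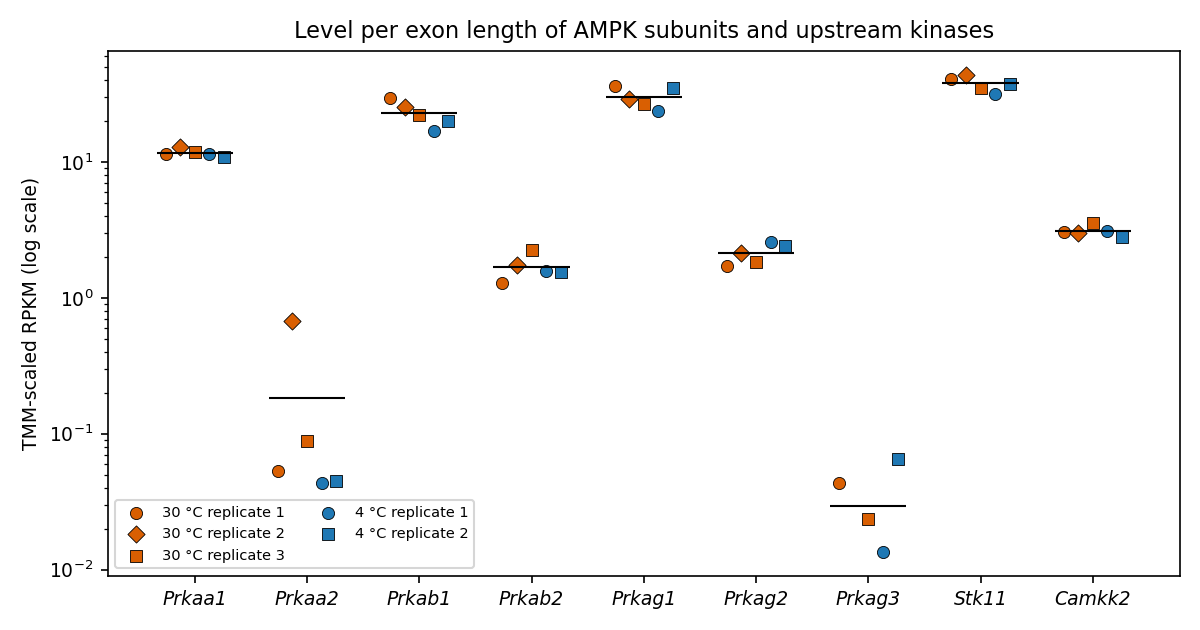
Level of each gene per exon length (TMM-scaled RPKM, log scale) in the 5 libraries, with orange for 30 °C, blue for 4 °C, a diamond for 30 °C replicate 2 and a horizontal line for the mean of all 5. Stk11, Prkag1, Prkab1 and Prkaa1 are at 10.9 or more in every library, and Prkaa2 is at 0.680 in 30 °C replicate 2 and at most 0.0877 in the others; the value of 0 for Prkag3 in 30 °C replicate 2 has no point.

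For the catalytic pair, Prkaa1 exceeded Prkaa2 at least 19.0-fold in RPKM, in 30 °C replicate 2, and at most 262-fold, in 4 °C replicate 1. Prkab1 exceeded Prkab2 between 9.90-fold and 23.2-fold, and Prkag1 exceeded Prkag2 between 9.15-fold and 21.03-fold. Stk11 stood between 9.81-fold and 14.6-fold above Camkk2. Each of these 4 ratios was above 1 in 5 of 5 libraries (exact sign-flip permutation test on log2 ratios, two-sided, p = 0.0625 for each, the smallest that 5 libraries allow). Except for the α pair, these ratios depend on the length used. With the longest transcript the β ratio ran from 14.3 to 33.5, the γ ratio from 6.19 to 14.2 and that of the kinases from 5.46 to 8.13. Summed over paralogues, α transcripts were the lowest of the 3 classes in every library, at 11.9 ± 1.00 RPKM (SD, n = 5), against 24.5 ± 4.92 for β and 32.4 ± 5.24 for γ.

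The 250 bases upstream of the annotated start are shown for the α pair, whose members differed most in level, and for the pair γ1 and γ2. They are taken from RefSeq on GRCm38.p6, in which all 9 genes have an entry, and are written 5′ to 3′ on the strand of the gene. Capitals mark GGGCGG (the GC box bound by Sp1 family factors) and CCAAT (the CCAAT box bound by NF-Y) on either strand, with overlapping matches merged. Prkaa1 lies at chr15:5143611-5143860 on the plus strand, Prkaa2 at chr4:105109899-105110148, Prkag1 at chr15:98831509-98831758 and the most upstream of 3 listed starts of Prkag2 at chr5:25100643-25100892, all 3 on the minus strand.
Prkaa1: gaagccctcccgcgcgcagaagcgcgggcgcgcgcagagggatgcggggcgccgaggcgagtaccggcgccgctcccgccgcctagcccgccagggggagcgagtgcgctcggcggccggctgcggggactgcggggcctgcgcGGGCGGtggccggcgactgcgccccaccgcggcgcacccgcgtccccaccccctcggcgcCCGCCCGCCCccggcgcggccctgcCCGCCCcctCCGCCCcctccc
Prkaa2: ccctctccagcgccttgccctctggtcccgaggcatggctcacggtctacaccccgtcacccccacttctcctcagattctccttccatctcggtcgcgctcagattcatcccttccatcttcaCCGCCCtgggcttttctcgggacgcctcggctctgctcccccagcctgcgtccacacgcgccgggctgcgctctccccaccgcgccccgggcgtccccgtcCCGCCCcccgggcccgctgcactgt
Prkag1: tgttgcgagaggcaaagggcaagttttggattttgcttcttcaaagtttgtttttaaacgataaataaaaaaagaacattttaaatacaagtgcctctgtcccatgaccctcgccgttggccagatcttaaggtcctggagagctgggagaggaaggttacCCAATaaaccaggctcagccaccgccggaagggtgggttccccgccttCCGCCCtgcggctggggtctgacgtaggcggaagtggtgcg
Prkag2: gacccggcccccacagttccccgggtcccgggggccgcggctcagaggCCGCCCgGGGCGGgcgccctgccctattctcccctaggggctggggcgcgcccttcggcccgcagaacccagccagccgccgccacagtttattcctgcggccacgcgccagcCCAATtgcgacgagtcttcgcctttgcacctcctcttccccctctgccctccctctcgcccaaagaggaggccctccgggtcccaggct

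The window of Prkaa1 was 85.2% G or C with 45 CG pairs, and that of Prkaa2 was 70.0% with 24. Over 32851 windows of the same length the medians were 52.4% and 6. GGGCGG stood 5 times in Prkaa1, 2 times in Prkaa2, 1 time in Prkag1 and 2 times in Prkag2, and 32.7% of all windows hold it. In the windows not shown, it stood 0 times in Prkab1, Prkag3 and Stk11, 5 times in Prkab2 and 1 time in Camkk2. Its count over the 9 genes did not follow the order of their levels. CCAAT stood 1 time each in Prkag1 and Prkag2 and in neither α window, and 33.8% of all windows hold it. Both α windows thus held more CG pairs than the median window. These matches are letters in a window and were not tested for binding.

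Prkaa1 encodes α1, the catalytic subunit found in most tissues, and was the steadiest member. It had 57.7, 44.2 and 62.2 CPM in 30 °C replicates 1 to 3 and 57.5 and 52.2 CPM at 4 °C, and the groups overlapped. The low value of 30 °C replicate 2 went with its pancreatic counts, and after TMM scaling the 5 libraries lay within 1.18-fold, from 50.7 to 60.0. TMM-scaled CPM were 56.3 ± 3.34 at 30 °C (SD, n = 3) and 52.0 ± 1.82 at 4 °C (SD, n = 2). The log2 fold change (log2FC, 4 °C over 30 °C) was −0.11 ± 0.16 (SE, for edgeR here and below derived from the F statistic). After TMM scaling both libraries at 4 °C lay below all 3 at 30 °C, by less than the SD at 30 °C at the nearest pair.

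Prkaa2 encodes α2, the catalytic subunit best known from muscle, heart and liver. It had 8, 66 and 16 counts in 30 °C replicates 1 to 3 and 7 and 6 counts at 4 °C. In CPM this is 0.458, 3.99 and 0.787 at 30 °C and 0.376 and 0.371 at 4 °C. A single library, 30 °C replicate 2, thus carried most of its reads, and its exact 95% binomial interval of 3.09 to 5.08 CPM lay above the intervals of the other 4 libraries, which ended at 1.28 CPM or below. Such intervals cover counting error within a library only and hold no variation between tumours. They may be too narrow even for that, since reads copied by PCR, with no molecular identifier, cannot be told from separate molecules. Prkaa2 passed the filter on low counts only through the libraries at 30 °C, the group in which it is high.

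The log2FC of Prkaa2 between 4 °C and 30 °C was −2.56 ± 1.24 (SE) with all libraries and −0.68 ± 0.63 (SE) without 30 °C replicate 2. DESeq2 gave a wider SE without that library, at −0.68 ± 1.22. Both libraries at 4 °C were below all 3 at 30 °C with and without it, yet the remaining 4 libraries held 6 to 16 counts each, and their exact intervals overlapped. All 14 acinar genes were highest in 30 °C replicate 2, the library with the high Prkaa2. In 4 °C replicate 2, with 2211 CPM of acinar transcripts against 231614 CPM in 30 °C replicate 2, Prkaa2 stood at 6 counts. Left out of the library total, the acinar genes changed Prkaa2 in 30 °C replicate 2 from 3.99 to 5.19 CPM. Summed hepatocyte markers were at 20.1 CPM and summed skeletal muscle markers at 14.7 CPM there, and both lists were higher in at least 1 other library. The epithelial and adipocyte lists, at 122 and 13.1 CPM in sum, were highest in 30 °C replicate 2 as well. Of 7 adipocyte genes, 5 were highest in that library after TMM scaling and 4 stood above the floor of 3 counts there. Lep was at 0 in every library, and Plin1 and Ucp1 were at 3 counts or fewer. The part of pancreatic or other tissue in the Prkaa2 value was not tested.

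**Figure D2:**
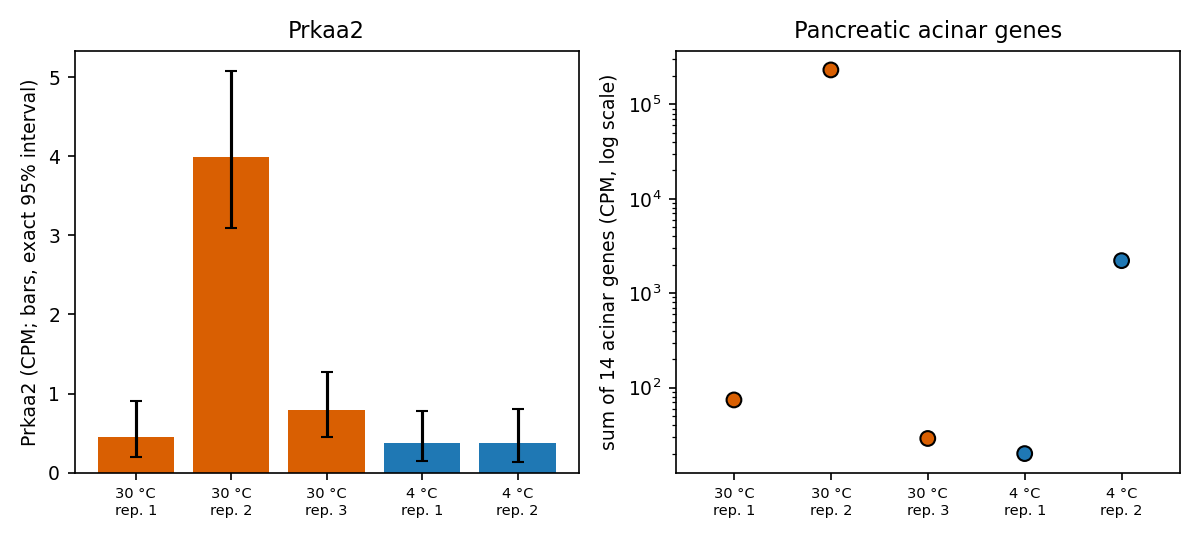
Prkaa2 (left; bars in CPM with exact 95% binomial intervals) and the sum of 14 pancreatic acinar genes (right; points, CPM on a log scale) in each library, with orange for 30 °C and blue for 4 °C. 30 °C replicate 2 is the highest library in both panels, at 3.99 and 231614 CPM, and 4 °C replicate 2, second for the acinar genes at 2211 CPM, has 0.371 CPM of Prkaa2.

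As a share of the summed level per length of α1 and α2, Prkaa2 made up 5.01% in 30 °C replicate 2 (95% Wilson interval 3.94% to 6.35%). In the other 4 libraries it ranged from 0.380% to 0.734%. This share does not depend on the scaling between libraries. The genes whose profile over the 5 libraries was nearest to that of Prkaa2, by the root-mean-square difference of centred log2 CPM among 14564 genes, were Chmp4c (0.27), Fut1 (0.27) and Homer2 (0.29). All 3 were highest in 30 °C replicate 2, with Homer2 at 18.1 CPM there and between 2.34 and 3.10 CPM elsewhere. This follows from their choice by nearness to Prkaa2 and is no separate result.

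Prkab1, the gene of β1, was the scaffolding subunit that prevailed. Its CPM were 98.3, 57.2 and 77.4 at 30 °C and 55.8 and 62.9 at 4 °C, so that the groups overlapped through 30 °C replicate 2. After TMM scaling the values were 91.5, 77.6 and 68.7 at 30 °C and 51.6 and 61.0 at 4 °C, without overlap. The means were 79.3 ± 11.5 (SD, n = 3) and 56.3 ± 6.66 (SD, n = 2), which gave a log2FC of −0.49 ± 0.20 (SE), or −0.52 ± 0.25 (SE) without 30 °C replicate 2. It was the only member with an unadjusted p under 0.05 in the edgeR fit, as had 6.76% of all 16133 genes, and that fit called 0 genes after adjustment. That count depended on the processing. It was 0 members under upper-quartile scaling, with the replicate number as a block or without 30 °C replicate 2, and 2 with DESeq2.

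Prkab2 encodes β2, abundant in skeletal muscle. It had 7.03, 6.53 and 13.0 CPM at 30 °C and 8.70 and 8.09 CPM at 4 °C, with the libraries at 4 °C inside the range of those at 30 °C. On the TMM scale its log2FC was −0.18 ± 0.30 (SE), and it was 0.0478 without 30 °C replicate 3, the library with its highest value. The share of Prkab2 in the β level per length was 6.58% ± 2.53 at 30 °C (SD, n = 3) and 7.88% ± 0.993 at 4 °C (SD, n = 2), a difference smaller than the spread at 30 °C.

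Of the regulatory subunits, Prkag1 (γ1, found in most tissues) had 84.4, 46.9 and 65.9 CPM at 30 °C and 55.6 and 79.1 CPM at 4 °C. Its 2 libraries at 4 °C lay near the opposite ends of the range, and the log2FC of −0.06 ± 0.24 (SE) turned to 0.20 without 4 °C replicate 1 and to 0.0695 without 30 °C replicate 1. Prkag1 shares 950 exonic bases with the antisense gene B130046B21Rik, and whether the counting used strand is not given. That gene had at most 27 counts, and at most 2.02% of the counts of Prkag1 in a library.

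Prkag2, the gene of γ2, which is known for mutations that cause cardiac glycogen storage, was the only tested member with a log2FC above 0 on the TMM scale. In plain CPM the means of Prkaa1 (54.7 at 30 °C, 54.9 at 4 °C) and Prkag1 (65.7 and 67.3) were higher at 4 °C too, with overlapping groups. It had 11.95, 10.2 and 13.5 CPM at 30 °C and 18.1 and 16.1 CPM at 4 °C. TMM scaling gave 12.3 ± 1.41 (SD, n = 3) and 16.2 ± 0.837 (SD, n = 2), and both libraries at 4 °C were above all 3 at 30 °C on either scale. The log2FC was 0.39 ± 0.21 (SE), 1.31-fold, and 0.48 ± 0.25 (SE) without 30 °C replicate 2. Over 13 alternative fits it stayed between 0.33 and 0.48.

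Prkag2 has 3 starts in RefSeq, and the counts per gene do not separate them. Its exons overlap the antisense genes Prkag2os1 and Prkag2os2, which had at most 6 and 3 counts. As a share of the γ level per length, Prkag2 made up 4.53%, 6.82% and 6.42% at 30 °C and 9.85% and 6.37% at 4 °C, so that the share of 4 °C replicate 2 fell inside the range at 30 °C. The nearest profiles were those of Gm9856 (root-mean-square difference 0.050), Zfp983 (0.060) and Vwa1 (0.062). All were highest in 4 °C replicate 1, as was Prkag2, which follows from their choice by nearness.

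Prkag3, the gene of γ3, which is known almost solely from glycolytic skeletal muscle, had 3, 0 and 2 counts at 30 °C and 1 and 4 counts at 4 °C. It did not pass the filter, and in 30 °C replicate 2, where its count was 0, the floor of 3 counts equals 0.181 CPM and the exact 95% upper limit is 0.223 CPM. Among 10 skeletal muscle markers, Myh4 was at 0 in every library and the sum ranged from 14.7 to 23.8 CPM. No fold change is given for Prkag3, since its counts lie at or near the floor of 3.

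**Figure D3:**
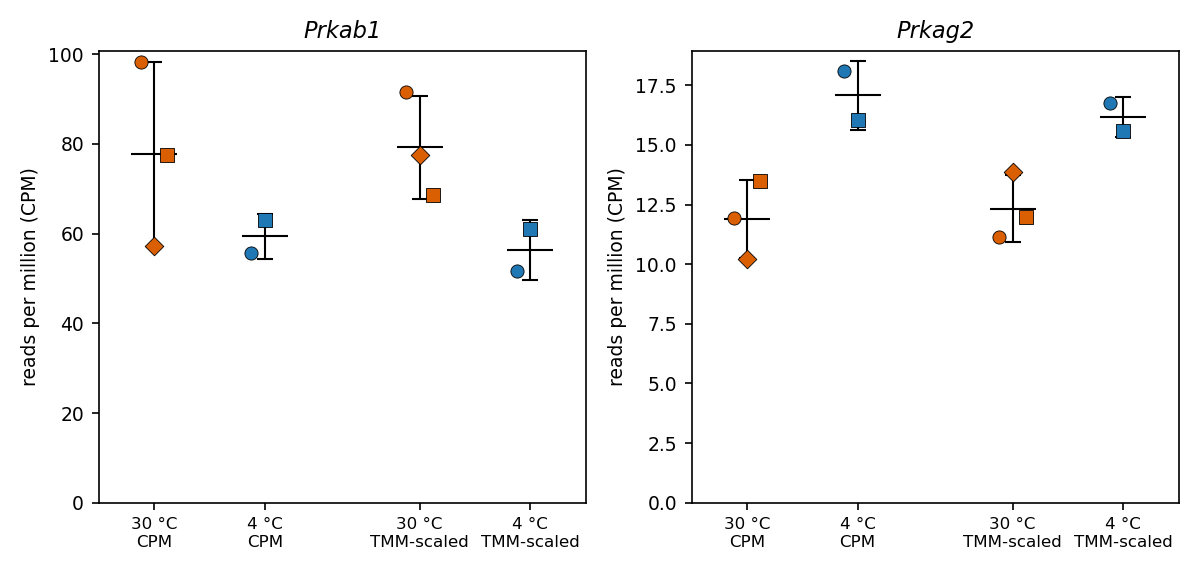
Prkab1 (left) and Prkag2 (right) in each library, as CPM and as TMM-scaled CPM, with points for libraries (orange, 30 °C; blue, 4 °C; diamond, 30 °C replicate 2), horizontal lines for means and bars for SD (n = 3 and n = 2). For Prkab1 the groups overlap in CPM and not after TMM scaling, whereas for Prkag2 the 4 °C libraries are above all 30 °C libraries on both scales.

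Stk11 encodes LKB1, a tumour suppressor and the main AMPK kinase under energy stress. It had 203, 149 and 180 CPM at 30 °C and 158 and 178 CPM at 4 °C, with overlapping groups. TMM-scaled means were 183 ± 21.6 (SD, n = 3) and 159 ± 18.3 (SD, n = 2), which gave a log2FC of −0.20 ± 0.18 (SE). Stk11 shares 232 exonic bases with Cbarp on the opposite strand, which had at most 102 counts.

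Camkk2 encodes the calcium-dependent kinase CaMKK2. It had 35.9, 24.3 and 43.7 CPM at 30 °C and 36.5 and 31.6 CPM at 4 °C. TMM-scaled means were 35.1 ± 3.26 (SD, n = 3) and 32.2 ± 2.23 (SD, n = 2), which gave a log2FC of −0.12 ± 0.18 (SE). The groups of both upstream kinases overlapped on either scale. No stretch of 50 bases in the annotated transcripts of the 9 genes recurred in another member, and only Prkag3 shared any with other genes (0.995% of its stretches).

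Over the 8 members that passed the filter, 0 had an adjusted p under 0.05 with the quasi-likelihood test of edgeR, as had 0% of all 16133 genes (smallest adjusted p = 0.689). At an unadjusted p under 0.05 it was 1 of 8 (Prkab1), against 6.76% of all genes. With DESeq2, 0 members were called, with no adjusted p for Prkaa2, against 1.01% of the 11697 genes given an adjusted p. After TMM scaling the groups did not overlap in 3 members that were lower at 4 °C (Prkaa1, Prkaa2 and Prkab1), against 11.0% of all genes, and in 1 that was higher (Prkag2), against 12.2%. Of the 8, 7 had a log2FC below 0, against 49.3% of all genes, with a median of −0.15 against 0.01. Since the group was chosen with this comparison known, nothing is read from these counts.

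**Figure D4:**
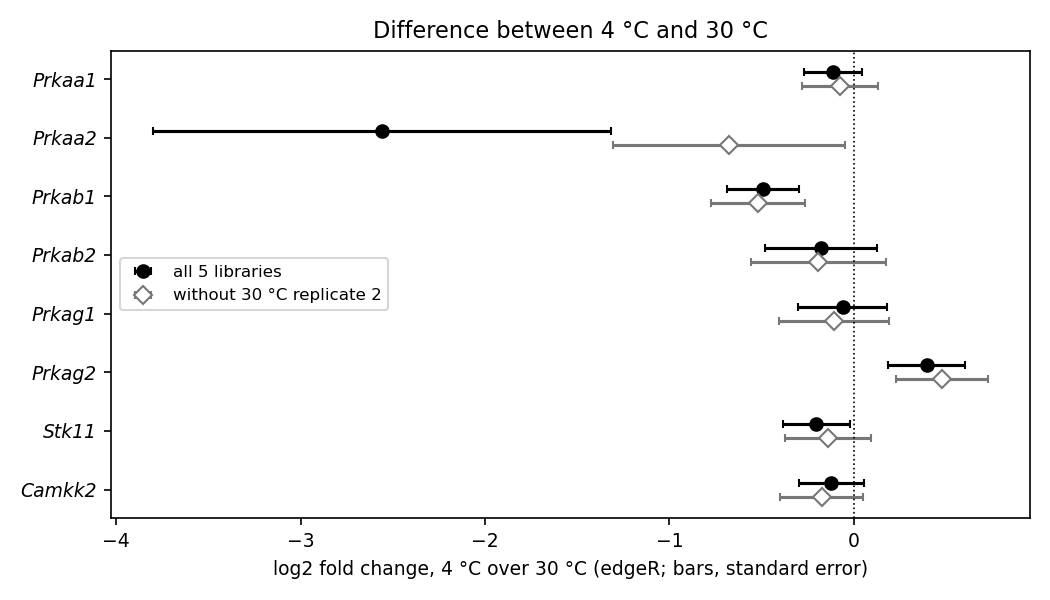
Log2FC of 4 °C over 30 °C from edgeR for the 8 tested members, in all 5 libraries (filled circles) and without 30 °C replicate 2 (open diamonds). Bars are standard errors derived from the F statistic. Prkaa2 moves from −2.56 to −0.68 when that library is left out, and for each of the other 7 the bars of both fits overlap.

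Beyond the 9 genes, 82 genes of the pathway were read from 6 lists, of which 76 were tested. With edgeR, 0 passed an adjusted p of 0.05, and 5 had an unadjusted p under 0.05, all lower at 4 °C (Fnip2, Ulk1, Foxo3, Eef2k and Ampd3), against 6.76% of all genes, of which 673 were lower and 417 higher. DESeq2 called 2 of them, Fnip2 and Ampd3, and gave 7 of the 76 no adjusted p, against 1.01% called of all genes given an adjusted p. It called 0 of them without 30 °C replicate 2. On simulated counts, which lacked the pancreatic skew of 30 °C replicate 2, DESeq2 made false calls at a larger share than edgeR. Both shares were above the nominal threshold, and DESeq2 also recovered more of the changed genes. The median log2FC of the 76 was −0.04, against 0.01 over all genes.

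Among 18 partners of LKB1 and other upstream inputs, all tested, 11 were lower and 7 higher at 4 °C. Fnip2, whose protein binds folliculin and AMPK, had 39.6, 29.1 and 35.8 CPM at 30 °C and 22.9 and 19.8 CPM at 4 °C. Its log2FC was −0.83 ± 0.19 (SE; edgeR, adjusted p = 0.689), and DESeq2 gave an adjusted p of 0.0335. Stradb, a pseudokinase that holds LKB1 in its active form, had a log2FC of −0.43 ± 0.21 (SE; edgeR, adjusted p = 0.765). In both genes the libraries at 4 °C were below all those at 30 °C on the TMM scale.

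Of 12 AMPK-related kinases that LKB1 also activates, 11 were tested, 6 of them lower at 4 °C (3 when libraries were scaled by their upper quartile). Over all 16133 genes, upper-quartile scaling also lowered this count, from 7951 to 7019. Mark1, a kinase of microtubule-associated proteins, and Brsk1, a kinase of neuronal polarity, had the smallest p. Their log2FC were 0.64 ± 0.39 (SE; edgeR, adjusted p = 0.815) for Mark1 and −0.68 ± 0.55 (SE; edgeR, adjusted p = 0.858) for Brsk1, both with overlapping groups.

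Of 22 substrates of AMPK, 21 were tested, 14 of them lower at 4 °C (10 under upper-quartile scaling, which lowered the count over all genes too). Ulk1, the kinase that starts autophagy, had 62.3, 47.3 and 54.0 CPM at 30 °C and 43.8 and 34.2 CPM at 4 °C. Its log2FC was −0.62 ± 0.20 (SE; edgeR, adjusted p = 0.692). Foxo3, a transcription factor of stress resistance, had 171, 106 and 140 CPM at 30 °C and 112 and 87.0 CPM at 4 °C. Its log2FC was −0.60 ± 0.19 (SE; edgeR, adjusted p = 0.692), and for both genes the groups did not overlap after TMM scaling.

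Of 12 enzymes of AMP turnover, 9 were tested, 6 of them lower at 4 °C. Ampd3, the AMP deaminase of red cells, had 69.3, 43.5 and 66.2 CPM at 30 °C and 36.0 and 34.3 CPM at 4 °C. Its log2FC was −0.87 ± 0.16 (SE), with an adjusted p of 0.689 in edgeR and 0.00193 in DESeq2. Summed erythroblast markers were higher in both libraries at 4 °C in plain CPM. After TMM scaling, the scale of this log2FC, 4 of 9 of them were highest in 30 °C replicate 2, and so was their sum. Adk, which phosphorylates adenosine to AMP, had a log2FC of −0.68 ± 0.30 (SE; edgeR, adjusted p = 0.754), with overlapping groups.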

How the data were processed

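RNA of tumour tissue from 5 libraries, 3 at 30 °C and 2 at 4 °C, was sequenced after TruSeq library preparation. The deposited values are raw counts per gene symbol, made by the authors with featureCounts on the Gencode vM19 annotation per the paper's methods, whereas the submitters' processing notes name fastp, HISAT and RSEM and the build GRCm38. Strand setting and the treatment of multiply mapped reads are not given in the sources used here. The 333 entries with no gene name (at most 0.0170% of a library) were left out, and of 94 repeated symbols the entry with the highest mean carried the name.

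Counts were filtered with filterByExpr, scaled by TMM and compared in edgeR 4.0.16 (R 4.3.3) with a robust quasi-likelihood F-test and no covariate, with Benjamini-Hochberg adjustment over 16133 genes and a threshold of 0.05. DESeq2, the tool of the study, was run in version 1.42.0 as an alternative, and its missing adjusted p-values were left missing. Fits that leave out a library kept the 16133 genes, and without a library at 4 °C the lone other one was assumed to vary like those at 30 °C. The SE of each edgeR log2FC was taken as its absolute value divided by the square root of F, and was not estimated separately. Log2 CPM used a prior count of 2. A count of 3 was the floor. Lengths, loci and overlaps came from GENCODE M21 on GRCm38, and promoter windows from RefSeq on GRCm38.p6. Both tools were tested on simulated counts, where the share of false calls exceeded the threshold of 0.05 for each and was larger for DESeq2. DESeq2 also recovered more of the changed genes. Apart from the changed genes, all simulated libraries had the same composition, unlike the real ones. The members, lists and alternatives were chosen with earlier results of these data known. All members are named, with the 2 genes of smallest p in each list and the 3 nearest profiles of Prkaa2 and Prkag2; other names, such as Eef2k, were chosen after their values were seen.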

Additional observations from a re-analysis of the deposited data

How the results depend on the processing

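The log2 fold changes of Prkaa1, Prkaa2, Prkab1, Stk11 and Camkk2 stayed negative and that of Prkag2 positive in all alternatives that gave a value (13 each, 12 for Prkaa2, which a minimum of 10 counts in every library removes), and no member was called in any of them. Those of Prkab2 and Prkag1 changed sign. With the replicate number as a block Prkab2 stood at 0.0622, and with each library left out in turn it ran from −0.36 to 0.0478 and Prkag1 from −0.40 to 0.20 (0.0695 without 30 °C replicate 1). The count of all genes called, 0 with edgeR, became 118 with DESeq2, 44 with the replicate block and 4 with DESeq2 without 30 °C replicate 2, a combination added after seeing the data. The count of other pathway genes became 2 with DESeq2. The cause was not tested. Replicate numbers are shared by the groups, except that 30 °C replicate 3 has no counterpart at 4 °C. Deviations from the group means correlated at −0.25 for number 1 and 0.26 for number 2 over genes. With 2 libraries at 4 °C their deviations mirror each other, so these values are not separate checks and cannot decide whether the numbers pair the tumours. The main fit took no pairing, and the block changed no call of a member. The difference in the Prkag2 share of the γ level, 2.18 percentage points higher at 4 °C, became 4.94 without length correction and ran from 0.45 to 3.92 when each library was left out, the lowest without 4 °C replicate 1. The difference in the Prkaa2 share of the α level was −1.67 percentage points and −0.20 without 30 °C replicate 2. With 6 to 66 counts per library, Prkaa2 is limited by depth, and Prkag3 was not measurable.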

Other observations

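Of 10 genes of the PGC-1α axis, through which AMPK is known to favour oxidative metabolism, 9 were tested and 0 passed an adjusted p of 0.05 in edgeR (0 at an unadjusted p under 0.05, 0 with DESeq2). Of these, 3 were lower and 6 higher at 4 °C. Slc2a4, the insulin-responsive glucose transporter, had 13.5, 12.4 and 7.53 CPM at 30 °C and 4.67 and 7.84 CPM at 4 °C, with groups that overlapped. Cpt1a, which brings fatty acids into mitochondria, had 110, 46.8 and 139 CPM at 30 °C and 83.2 and 60.7 CPM at 4 °C, and its log2FC was −0.51 ± 0.31 (SE; edgeR, adjusted p = 0.812).

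Of 8 other calmodulin-dependent kinases, all tested, 5 were lower and 3 higher at 4 °C. With upper-quartile scaling 3 were lower, while the count over all 16133 genes fell as well, from 7951 to 7019. In edgeR 0 passed at either threshold, and 0 passed with DESeq2. Camk2b had 25.9, 12.6 and 10.3 CPM at 30 °C and 9.94 and 11.7 CPM at 4 °C, so that the highest value came from 30 °C replicate 1 alone. Camk1g had 44, 4 and 29 counts at 30 °C and 7 and 14 counts at 4 °C, and its lowest CPM was in 30 °C replicate 2.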
